A study of Mus musculus with 6 samples.

Results

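A set of 10 astrocyte and radial glia genes was measured in neural progenitor cells (NPCs, called NSCs in the sample labels) from the tail and from the brachial level of mouse embryos. They were Slc1a2, Slc1a3, Aldh1l1, Hepacam, Aqp4, Gja1, Gfap, S100b, Fabp7 and Fgfr3. The genes were picked by name, but with earlier results of these data known, so the set is not independent of the values below. Each was read from a transcript cluster, a set of probes summarized into 1 value, whose annotation gave that symbol alone. All 10 had 1 such cluster, among 22180 genes measured in this way.

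Radial glia are the progenitors that line the cavity of the developing neural tube, and they give rise first to neurons and later to astrocytes. Astrocytes take up glutamate through the transporters encoded by Slc1a2 and Slc1a3, move water through Aqp4, and are joined to each other by the connexin that Gja1 encodes. Fabp7 and Slc1a3 are already made by radial glia of the spinal cord, whereas Aqp4, Gfap and S100b serve mostly as marks of maturing astrocytes.

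The study set tail-derived against brachial-derived NPCs to find the genes that go with their different adhesion and migration. The tail group had 3 samples of NPCs from tail tissue, from which somites had been taken away as far as possible. The brachial group had 3 samples of NPCs from the neural tissue that lies between hindbrain and forelimbs. All samples came from embryos of stage E12.5 by the labels, or E12 by the sample descriptions and the methods, and no treatment or modified allele is given for any of them. Cells of both groups were dissociated and expanded as neurospheres in N2 and B27 medium with bFGF at 20 ng/ml and EGF at 20 ng/ml. Total RNA of each sample went onto 1 array, and each value is a log2 signal made by the authors with the RMA method. Neither labels nor methods tell if replicates were separate cultures or litters, so the p-values below measure only the spread between these samples, which may be technical. In such bulk samples fewer cells of a type and less RNA per cell cannot be told apart.

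Arrays within a group stood apart from each other. The posterior Hox genes (groups 10 to 13) averaged 6.32, 6.57 and 6.83 on tail arrays 1 to 3, against 4.37, 4.49 and 4.37 on brachial arrays 1 to 3, so tail replicate 3 carried the Hox level of its label. Markers of mesenchyme, connective tissue cells such as those that somites give rise to, had a mean of 10.12, 9.90 and 8.64 on the tail arrays, against 8.54, 4.98 and 4.99 on the brachial arrays. Tail replicate 3 thus lay nearer to brachial replicate 1 than to the other tail arrays in these markers. The anterior Hox genes of groups 1 to 9 were at 4.77 on brachial replicate 2, against 6.32 to 6.66 on the other brachial arrays. The 10 genes are therefore given with and without tail replicate 3, and other arrays are named where leaving them out moved a value widely.

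Of the 10 genes 8 had lower means in tail-derived than in brachial-derived NPCs, against 55.2% of all genes, but with all 6 arrays no difference passed the test. Hepacam and Aldh1l1 were lowest relative to brachial NPCs, with log2 fold changes of -3.73 and -2.19, and the glutamate transporter genes Slc1a2 and Slc1a3 had -1.52 and -1.38. When tail replicate 3 was left out, 9 of the 10 means were lower, against 55.3% of all genes. Aldh1l1 and Slc1a3 then fell in tail-derived NPCs, by 2.41 and 1.93 on the log2 scale. That array lay above both other tail arrays for 7 of the 10 genes, so leaving it out lowers their tail means. Leaving it out also raised the number of all genes that passed, from 14 higher and 9 lower to 138 and 128. Gja1, Gfap and Fabp7 had log2 fold changes between -0.20 and 0.21 with all arrays, and Gfap varied more between arrays of 1 group than between groups.

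With all arrays 0 of the 10 genes passed limma's test, in which a gene is called at an adjusted p under 0.05 over all 22180 genes, and 0.0406% of all genes were called lower in tail NPCs. At an unadjusted p under 0.05 the same fit had 4 of the 10 genes lower, Slc1a2, Slc1a3, Aldh1l1 and Hepacam, and 0 higher, against 6.39% of all genes lower and 5.43% higher. Without tail replicate 3 the adjusted test called 2 genes lower, Slc1a3 and Aldh1l1, against 0.577% of all genes. The unadjusted p was then under 0.05 and the value lower for 6 genes, Aqp4 and S100b being added, against 8.26% of all genes. The difference of mean log2 values was -1 or lower for 6 genes with all arrays and for 7 without tail replicate 3, against 1.74% and 2.73% of all genes. The median log2 fold change of the 10 genes was -1.14 with all arrays and -1.86 without tail replicate 3, while that of all genes was -0.03 in each fit.

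**Figure D1:**
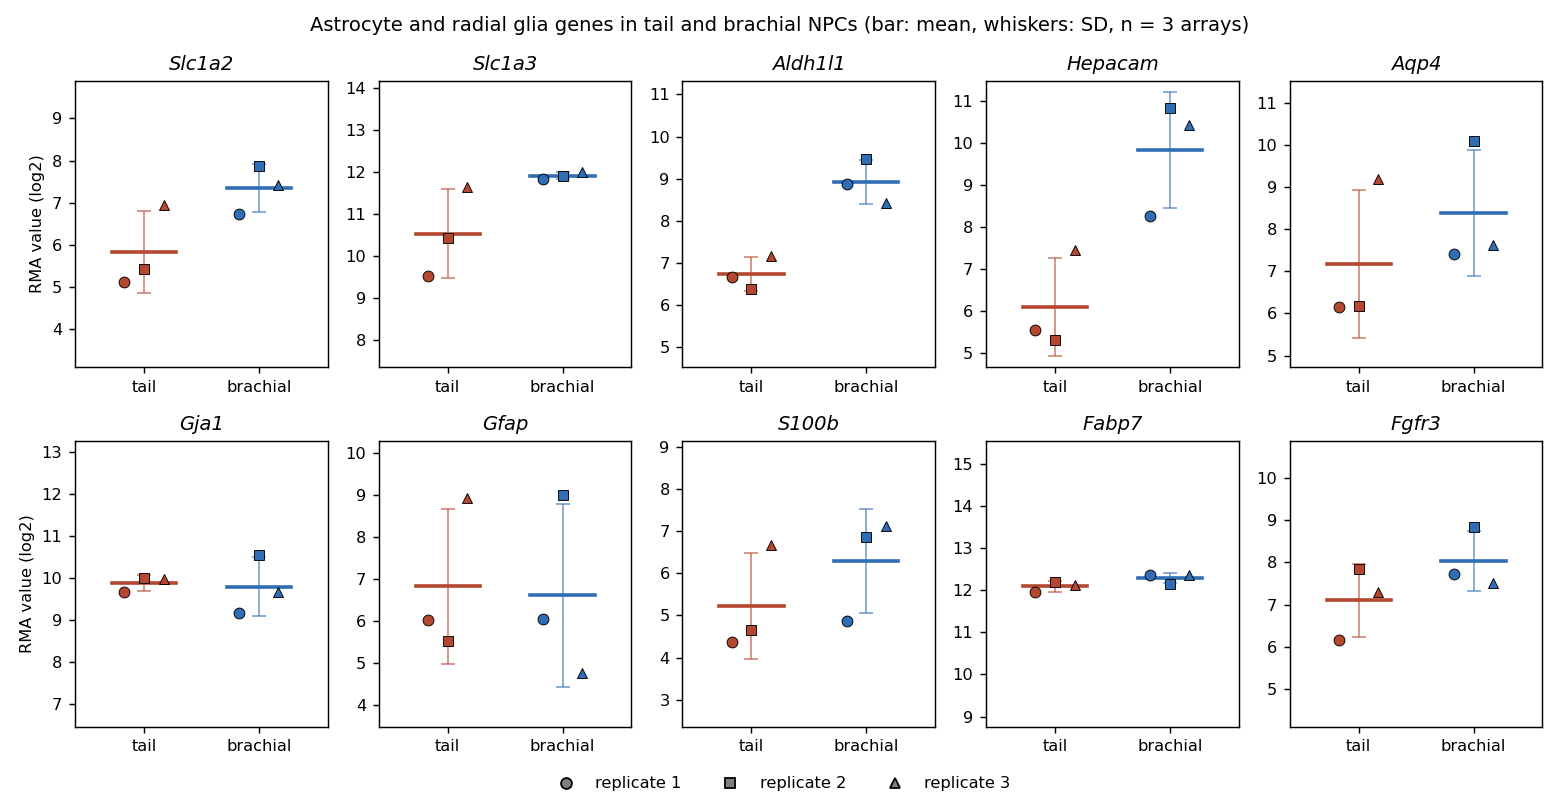
RMA values (log2, y axis) of the 10 genes on each tail and brachial array, with 1 panel per gene. Symbols give the replicate, horizontal bars the mean and whiskers the SD of 3 arrays. Every tail array lies below every brachial array for Slc1a3, Aldh1l1 and Hepacam, and the triangle of tail replicate 3 lies above the other tail arrays in 7 of the 10 panels.

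**Figure D2:**
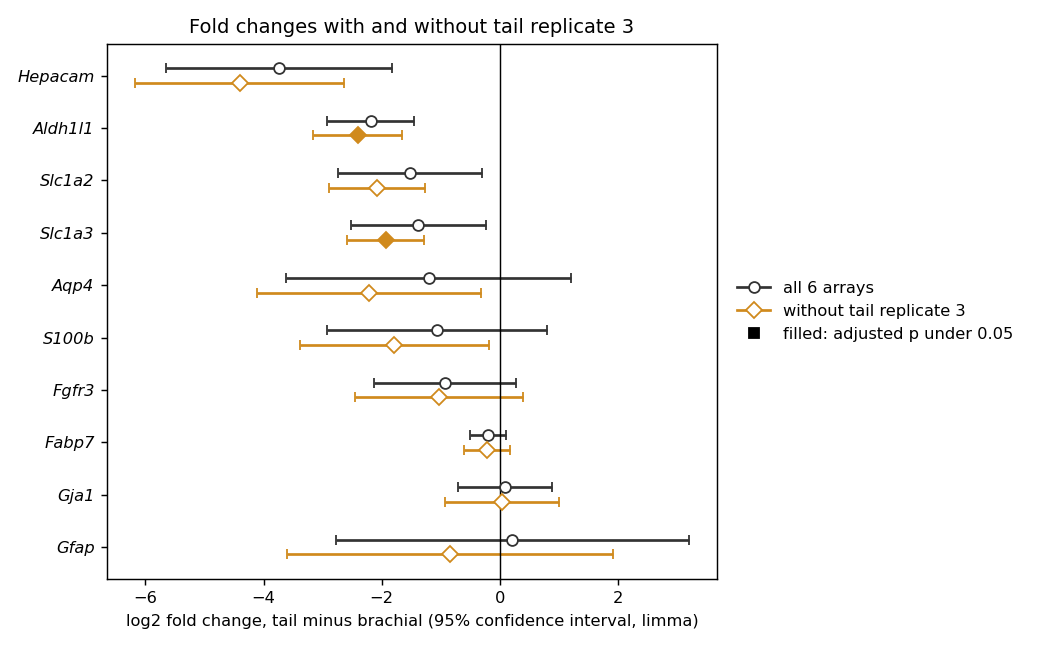
Log2 fold change, tail minus brachial (x axis), of each gene with its 95% confidence interval from limma, with all 6 arrays (circles) and without tail replicate 3 (diamonds). Filled symbols mark an adjusted p under 0.05, which only Aldh1l1 and Slc1a3 had, and only without tail replicate 3.

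Slc1a3 encodes GLAST, the glutamate transporter that radial glia make before astrocytes mature. Its RMA value was 9.53, 10.42 and 11.64 on tail arrays 1 to 3, against 11.83, 11.91 and 11.998 on brachial arrays 1 to 3. The brachial arrays were nearly alike and the tail arrays were spread out, with tail replicate 3 just under the lowest brachial array and no overlap between groups. The tail mean was 10.53 ± 1.06 and the brachial mean 11.91 ± 0.085 (SD, n = 3 arrays per group). The log2 fold change of -1.38 had a standard error of 0.48 and did not pass limma's test (adjusted p = 0.356). When tail replicate 3 was left out, Slc1a3 fell by 1.93 on the log2 scale (95% confidence interval -2.59 to -1.28, adjusted p = 0.0369 from limma), which is 3.82-fold lower in tail NPCs. Leaving out tail replicate 1, the lowest array, gave -0.88 (adjusted p = 0.659).

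Slc1a2 encodes GLT-1, the transporter that clears most of the glutamate in the mature brain. It had RMA values of 5.10, 5.42 and 6.94 on the tail arrays, against 6.73, 7.88 and 7.42 on the brachial arrays. The groups overlapped because tail replicate 3 lay above brachial replicate 1. With a standard error of 0.51, the log2 fold change of -1.52 did not pass limma's test (adjusted p = 0.342). Leaving out tail replicate 3 gave -2.08 with an interval of -2.90 to -1.26, and the adjusted p of 0.0548 missed the threshold. The log2 fold change was -1.16 without tail replicate 1 (adjusted p = 0.698 from limma) and -1.26 without brachial replicate 2 (adjusted p = 0.585).

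Aldh1l1 encodes a folate-metabolizing dehydrogenase that is widely used to mark astrocytes. Its values were 6.66, 6.37 and 7.17 on the tail arrays, against 8.88, 9.47 and 8.42 on the brachial arrays. All tail arrays were below all brachial arrays by more than the spread within either group, and tail replicate 3 stayed near the other tail arrays. The tail mean was 6.73 ± 0.41 and the brachial mean 8.92 ± 0.53 (SD, n = 3 arrays per group), which is 4.56-fold lower in tail NPCs, yet the adjusted p over all genes was 0.0975 from limma (log2 fold change -2.19, standard error 0.31). With tail replicate 3 left out, Aldh1l1 fell by 2.41 on the log2 scale (95% confidence interval -3.17 to -1.65, adjusted p = 0.0325 from limma), or 5.30-fold. With any 1 array left out the log2 fold change ran from -2.44 (without brachial replicate 3) to -1.91 (without brachial replicate 2). It passed in this way only without tail replicate 3.

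Hepacam encodes GlialCAM, an adhesion protein of astrocyte contacts and end-feet. It had 5.55, 5.32 and 7.45 on the tail arrays, against 8.26, 10.83 and 10.43 on the brachial arrays. The groups did not overlap, and the nearest arrays were tail replicate 3 and brachial replicate 1. The tail mean was 6.11 ± 1.17 and the brachial mean 9.84 ± 1.38 (SD, n = 3 arrays per group), which is 13.3-fold lower in tail NPCs, and the 95% confidence interval of the log2 fold change ran from -5.64 to -1.82. The adjusted p was 0.212 with all arrays and 0.0585 without tail replicate 3, both from limma, the log2 fold change without that array being -4.41. With any 1 array left out the log2 fold change ran from -4.52 (without brachial replicate 1) to -3.24 (without brachial replicate 2). The adjusted p from limma was 0.0691 and 0.423 in these 2 settings.

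Aqp4 encodes the main water channel of astrocyte end-feet. Its values were 6.15, 6.19 and 9.20 on the tail arrays, against 7.43, 10.10 and 7.63 on the brachial arrays. Tail replicate 3 and brachial replicate 2 were high, each more than 1 above the other arrays of its group, and the groups overlapped. With all arrays the log2 fold change of -1.21 had an interval of -3.63 to 1.21 (adjusted p = 0.700 from limma), and without tail replicate 3 it was -2.22 (adjusted p = 0.244). It was -0.35 without brachial replicate 2 (adjusted p = 0.942), and -0.69 and -0.71 without tail replicate 1 and 2. With both high arrays left out, a setting chosen after the data were seen, it was -1.36 (adjusted p = 0.0470), and in none of the other settings did Aqp4 pass.

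S100b encodes a calcium-binding protein of astrocytes that is also made by other glia. It had 4.37, 4.64 and 6.67 on the tail arrays, against 4.87, 6.87 and 7.14 on the brachial arrays. Here tail replicate 3 was high in its group and brachial replicate 1 low in its own, so that each sat among the arrays of the other group. On tail arrays 1 and 2 the values lay below the medians of all clusters, 4.91 and 4.83, and on brachial replicate 1 near the median of 4.86. The size of the fold change thus rests on weak signals. The log2 fold change was -1.06 with all arrays (95% confidence interval -2.93 to 0.80, adjusted p = 0.652 from limma) and -1.78 without tail replicate 3 (adjusted p = 0.264). It was -1.77 without brachial replicate 1, but -0.64 without tail replicate 1 or brachial replicate 3.

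Gfap encodes the intermediate filament protein of mature astrocytes. Its values were 6.01, 5.52 and 8.93 on the tail arrays, against 6.06, 9.01 and 4.77 on the brachial arrays. In each group 1 array was near 9 and the others were at 6.06 or lower, so the groups overlapped widely. The value on brachial replicate 3 lay below the median of all clusters on that array, 4.84. The tail mean was 6.82 ± 1.84 and the brachial mean 6.61 ± 2.17 (SD, n = 3 arrays per group), and the interval of the log2 fold change, -2.78 to 3.20, was the widest of the 10 genes. The log2 fold change was 0.21 with all arrays (adjusted p = 0.970 from limma) and -0.84 without tail replicate 3 (adjusted p = 0.814). It was 1.41 without brachial replicate 2 and -0.71 without brachial replicate 3, so no direction can be given for this gene.

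Gja1 encodes the main gap junction protein shared by radial glia and astrocytes. It had 9.66, 10.01 and 9.98 on the tail arrays, against 9.17, 10.56 and 9.66 on the brachial arrays. The tail arrays lay inside the brachial range, and the log2 fold change of 0.086 had an interval of -0.72 to 0.89 (adjusted p = 0.951 from limma). It was 0.036 without tail replicate 3 (adjusted p = 0.985), -0.22 without brachial replicate 1 and 0.47 without brachial replicate 2.

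Fabp7 encodes brain lipid-binding protein, a fatty acid carrier of radial glia. It was 11.95, 12.20 and 12.13 on the tail arrays, against 12.37, 12.15 and 12.36 on the brachial arrays. All 6 arrays lay between 11.95 and 12.37, and the groups overlapped. The log2 fold change was -0.20 with an interval of -0.51 to 0.11 (adjusted p = 0.603 from limma), so a difference of 2-fold or more in signal lies outside the interval. These values are near the highest of any cluster on the arrays, 12.97 to 13.11. Whether the signal still follows the RNA level there was not tested. Leaving out tail replicate 3 gave -0.22 (adjusted p = 0.604), and leaving out tail replicate 1 gave -0.13.

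Fgfr3 encodes an FGF receptor made by progenitors of the spinal cord and later by its astrocytes. It had 6.15, 7.84 and 7.30 on the tail arrays, against 7.72, 8.84 and 7.52 on the brachial arrays. Tail replicate 1 was the low array, and tail replicate 2 lay above brachial replicates 1 and 3. The log2 fold change was -0.93 (95% confidence interval -2.13 to 0.27, adjusted p = 0.531 from limma) and -1.03 without tail replicate 3 (adjusted p = 0.489). It was -0.52 without brachial replicate 2 (adjusted p = 0.793) and -0.45 without tail replicate 1 (adjusted p = 0.842).

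The sequences just before the start sites of 4 of these genes are shown because they span the range of the results, Hepacam and Aldh1l1 with the lowest log2 fold changes, Slc1a3 as the transporter called without tail replicate 3, and Gfap as the gene without a direction. They are RefSeq promoters of mouse assembly GRCm38.p6, each reaching 250 bases upstream and 50 bases downstream of the start, written 5′ to 3′ on the strand of the gene. Hepacam is at chr9:37367356-37367655 on the plus strand, Aldh1l1 at chr6:90550543-90550842 on the plus strand, Slc1a3 at chr15:8710758-8711057 on the minus strand and Gfap at chr11:102897151-102897450 on the minus strand. Capitals mark matches, on either strand, to TTGGCA of NFI factors, TTCNNNGAA of STAT factors, GTGGGAA of RBPJ or ACAAT of SOX factors.
Hepacam: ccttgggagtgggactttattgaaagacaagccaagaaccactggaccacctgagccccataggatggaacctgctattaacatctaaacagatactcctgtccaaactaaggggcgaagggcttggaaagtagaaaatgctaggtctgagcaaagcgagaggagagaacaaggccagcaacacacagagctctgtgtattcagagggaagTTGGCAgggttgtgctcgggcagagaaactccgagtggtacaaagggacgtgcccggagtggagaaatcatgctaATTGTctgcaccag
Aldh1l1: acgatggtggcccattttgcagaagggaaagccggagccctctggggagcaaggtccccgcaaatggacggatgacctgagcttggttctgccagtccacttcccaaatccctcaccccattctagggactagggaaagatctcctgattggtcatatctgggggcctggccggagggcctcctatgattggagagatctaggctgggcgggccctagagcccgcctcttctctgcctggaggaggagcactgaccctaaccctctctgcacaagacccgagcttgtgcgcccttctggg
Slc1a3: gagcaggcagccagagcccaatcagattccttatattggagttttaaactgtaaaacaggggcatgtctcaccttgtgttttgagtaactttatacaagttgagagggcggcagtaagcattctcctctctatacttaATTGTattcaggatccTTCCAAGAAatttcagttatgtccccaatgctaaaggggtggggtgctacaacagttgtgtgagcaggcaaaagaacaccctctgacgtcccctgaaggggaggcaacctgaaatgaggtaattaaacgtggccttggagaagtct
Gfap: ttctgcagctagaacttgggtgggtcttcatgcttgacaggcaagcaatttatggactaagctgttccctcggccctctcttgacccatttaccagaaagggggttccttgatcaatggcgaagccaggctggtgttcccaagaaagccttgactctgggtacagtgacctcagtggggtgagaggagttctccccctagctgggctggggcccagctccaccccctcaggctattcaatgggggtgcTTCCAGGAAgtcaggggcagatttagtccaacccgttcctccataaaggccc

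Among 10 promoter windows of 9 of the genes, 2 held the NFI letters, 2 the STAT letters, 0 the RBPJ letters and 3 the SOX letters. Of all 32851 windows 14.1%, 8.3%, 6.38% and 31% held them, in the same order. Hepacam had an NFI and a SOX match, Slc1a3 a STAT and a SOX match, Gfap a STAT match and Aldh1l1 none. A match describes these letters only.

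The arrays that stood apart did so in these genes as well. Tail replicate 3 was at least 1 above both other tail arrays for 6 of the 10 genes, against 1.45% of all genes, by 1.22 for Slc1a3, 1.52 for Slc1a2, 1.89 for Hepacam, 2.03 for S100b, 2.92 for Gfap and 3.02 for Aqp4. Brachial replicate 2 was at least 1 above both other brachial arrays for 3 genes, against 0.933% of all genes, by 1.12 for Fgfr3, 2.47 for Aqp4 and 2.95 for Gfap. Every tail array was below every brachial array for 3 genes, Slc1a3, Aldh1l1 and Hepacam, against 9.36% of all genes, and without tail replicate 3 for 6 genes, Slc1a2, Aqp4 and S100b being added, against 18.6% of all genes.

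Among the 7 genes that were lower by 1 or more without tail replicate 3, that array lay at different distances between the groups. Its position was taken as the share of the way from the mean of the other tail arrays to the brachial mean. This share was 27.3% for Aldh1l1, 29.5% for Fgfr3, 45.7% for Hepacam, 80.4% for Slc1a2, 86.1% for Slc1a3, 121% for S100b and 137% for Aqp4, the last values lying beyond the brachial mean. The median of the 7 genes was 80.4%, and that of all 606 genes lower by 1 or more was 65.3%. The share past the midpoint was 57.1% of the 7 genes and 65.5% of the 606 genes, which include the 7. This array thus lay past the midpoint for many genes outside the set as well. Both sets were chosen for low values on the other tail arrays, which by itself moves the array left out toward the brachial mean. These positions therefore describe the array and test nothing.

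The mesenchyme markers differed between the groups in the opposite direction to most of these genes. Of 12 such markers 11 were higher in tail NPCs at an unadjusted p under 0.05, against 5.43% of all genes, and 0 passed the adjusted test, with a median log2 fold change of 3.63. Leaving out tail replicate 3, the median was 4.23 and 1 marker, the limb and trunk mesenchyme factor Prrx1, rose (log2 fold change 2.12, adjusted p = 0.0203 from limma). Meox2, a homeobox gene of somites, was at 10.99, 10.65 and 8.81 on the tail arrays, against 7.82, 4.24 and 4.31 on the brachial arrays. The 10 glial genes had a mean of 7.11, 7.39 and 8.74 on the tail arrays, against 8.33, 9.76 and 8.73 on the brachial arrays. Tail arrays 1 and 2, with the highest mesenchyme means, thus had the lowest glial means. The other arrays did not keep this order. Tail replicate 3 and brachial replicate 3 had nearly the same glial mean, at mesenchyme means of 8.64 and 4.99. The part of mesenchymal cells in the glial differences was not tested.

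Tail replicate 3 and brachial replicate 1, chosen after their values were seen, had nearly the same mesenchyme mean. Of the 10 genes 5 were lower and 5 higher on this tail array than on this brachial array. Aldh1l1 was lower by 1.71, Hepacam by 0.81, Fgfr3 by 0.42, Fabp7 by 0.24 and Slc1a3 by 0.19 on the log2 scale. Gfap was 2.87 higher, S100b 1.80, Aqp4 1.78, Gja1 0.81 and Slc1a2 0.21. With 1 array on each side these differences have no replicate check.

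**Figure D3:**
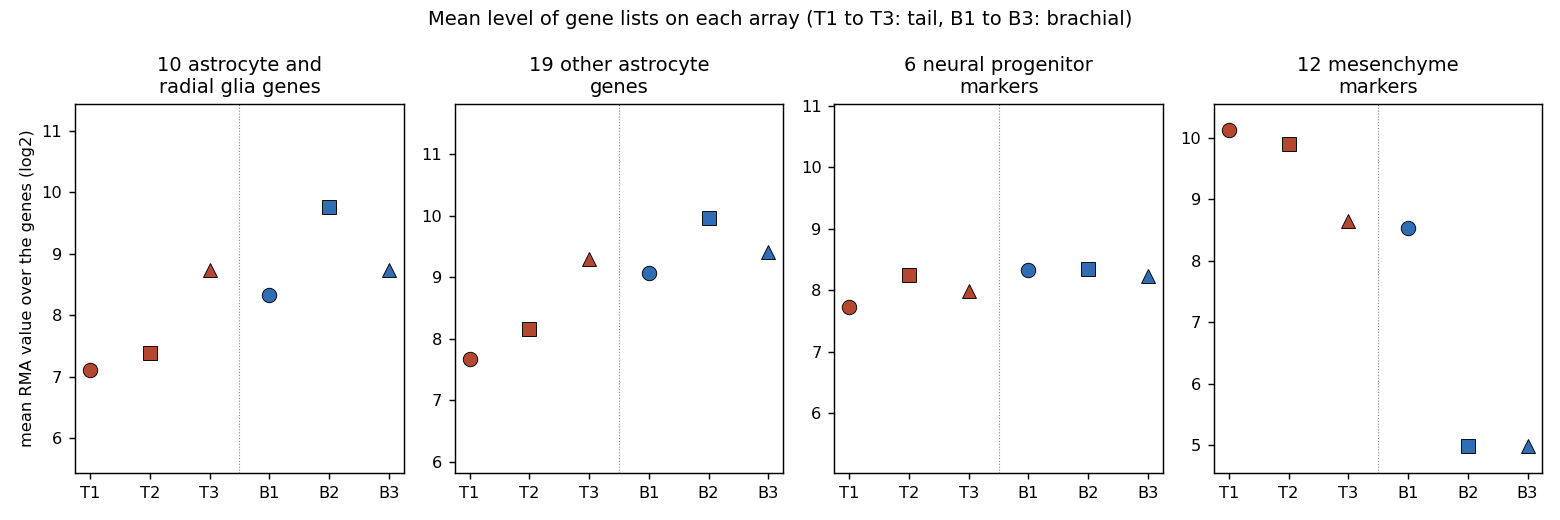
Mean RMA value (log2, y axis) on each array (x axis, T1 to T3 tail and B1 to B3 brachial) of the 10 astrocyte and radial glia genes, 19 other astrocyte genes, 6 neural progenitor markers and 12 mesenchyme markers. The glial means are lowest and the mesenchyme means highest on tail arrays 1 and 2. The progenitor means lie between 7.72 and 8.35, the lowest being that of tail array 1.

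Neural progenitor markers were present on all arrays, beside the mesenchyme markers given above. The 6 neural progenitor markers had means of 7.72 to 8.25 on the tail arrays, against 8.24 to 8.35 on the brachial arrays, with 0 called genes and a median log2 fold change of -0.37. Of the 6, 5 had lower means in tail NPCs, against 55.2% of all genes. At an unadjusted p under 0.05 there was 1 lower, against 6.39% of all genes, the progenitor factor gene Pax6 (log2 fold change -0.55, adjusted p = 0.377 from limma). Sox2, a transcription factor of neural stem cells, was at 9.55, 10.64 and 10.23 on the tail arrays, against 10.72, 10.78 and 10.77 on the brachial arrays (log2 fold change -0.61, adjusted p = 0.434 from limma). Nes, which encodes the progenitor filament nestin, had a log2 fold change of -0.09 (adjusted p = 0.932). The 7 microglia markers had means of 4.68 to 4.98 on the tail arrays, against 4.75 to 4.90 on the brachial arrays, close to the median of all clusters on each array, and 0 of them had an unadjusted p under 0.05.

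Other astrocyte genes were mostly lower in tail NPCs, and how they compare with the 10 genes was not tested. Of 19 measured, 18 had lower means, against 55.2% of all genes, with a median log2 fold change of -1.17. At an unadjusted p under 0.05 there were 7 lower, against 6.39% of all genes, and 0 passed the adjusted test. Their mean was 7.67, 8.16 and 9.30 on the tail arrays, against 9.06, 9.97 and 9.41 on the brachial arrays, with tail replicate 3 again inside the brachial range. S1pr1, a sphingosine phosphate receptor gene, had 6.09, 6.66 and 7.63 on the tail arrays, against 7.84, 9.14 and 8.49 on the brachial arrays (log2 fold change -1.70, adjusted p = 0.280 from limma). Aldoc, the aldolase gene of astrocytes, had 9.63, 10.45 and 11.10 on the tail arrays, against 11.33, 11.65 and 11.72 on the brachial arrays (log2 fold change -1.17, adjusted p = 0.308).

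All 19 astrocyte genes were lower in tail NPCs once tail replicate 3 was left out, with a median of -1.56. In 14 of them the groups did not overlap, where 18.6% of all genes had every tail array lower, while with all arrays it was 3 of 19, where 9.36% of all genes had. At an unadjusted p under 0.05 there were 13, against 8.26% of all genes, and 1 passed the adjusted test. That gene, named after its value was seen, was Glul, the glutamine synthetase that turns the glutamate taken up by astrocytes into glutamine. Glul was at 9.90, 9.9998 and 11.22 on the tail arrays, against 11.19, 11.12 and 11.09 on the brachial arrays, and without tail replicate 3 it fell by 1.19 (adjusted p = 0.0220 from limma). Its value on tail replicate 3 was above all brachial arrays.

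Mlc1 encodes a membrane protein that GlialCAM, the product of Hepacam, holds at astrocyte contacts. It was at 7.16, 7.37 and 10.27 on the tail arrays, against 9.38, 11.23 and 10.71 on the brachial arrays. As for Hepacam, tail arrays 1 and 2 were low and brachial replicate 1 was the lowest of its group, but tail replicate 3 overlapped with the brachial arrays. The log2 fold change was -2.17 with all arrays (adjusted p = 0.409 from limma) and -3.17 without tail replicate 3 (adjusted p = 0.0552). Of the 3 genes listed as partners or relatives of Hepacam 1 was lower at an unadjusted p under 0.05, namely Mlc1, against 6.39% of all genes. The median of the 3 was -0.11.

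Radial glia genes other than the 10 had a median log2 fold change closer to no difference, -0.30. Sox2, Nes, Sox1, Pax6 and Prom1 of this list were also counted among the neural progenitor markers. Of 18 measured, 13 had lower means in tail NPCs, against 55.2% of all genes. At an unadjusted p under 0.05 there were 4 lower and 1 higher, against 6.39% and 5.43% of all genes. In 5 of them every tail array was below every brachial array, against 9.36% of all genes. With or without tail replicate 3, 0 passed the adjusted test. Ttyh1, a membrane protein gene of neural stem cells, had 6.22, 7.78 and 8.66 on the tail arrays, against 9.55, 9.36 and 10.12 on the brachial arrays (log2 fold change -2.13, adjusted p = 0.281 from limma). Sox3, a transcription factor of progenitors, had a log2 fold change of -1.16 (adjusted p = 0.272), again without overlap of the groups. Vim, the vimentin filament of radial glia, was 12.40, 12.44 and 12.45 on the tail arrays, against 12.21, 12.21 and 12.15 on the brachial arrays, so that its tail values were all higher, by 0.24 on average (adjusted p = 0.441).

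The regulators that turn progenitors toward the glial fate lay on both sides of no difference. Of 18 genes 3 were lower and 2 higher at an unadjusted p under 0.05, against 6.39% and 5.43% of all genes, the median log2 fold change was 0.02, and 0 passed the adjusted test. Sox9 and Nfib, needed for the onset of gliogenesis, differed by 0.05 each (adjusted p = 0.952 and 0.937 from limma), with overlapping groups. Nfia, their partner in this step, was at 8.16, 8.36 and 9.12 on the tail arrays, against 8.71, 9.11 and 8.80 on the brachial arrays (log2 fold change -0.33, adjusted p = 0.685). Its value on tail replicate 3 was as high as the highest brachial value.

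Receptor subunits of the cytokine signal that drives astrocyte genes did not pass the test. Cntfr, the receptor subunit for ciliary neurotrophic factor, was at 8.52, 8.77 and 9.21 on the tail arrays, against 10.42, 9.57 and 10.64 on the brachial arrays (log2 fold change -1.38, adjusted p = 0.222 from limma). Il6st, the shared signalling subunit gp130, was at 10.14, 10.18 and 9.99 on the tail arrays, against 9.44, 9.65 and 9.22 on the brachial arrays (log2 fold change 0.67, adjusted p = 0.215). Neither overlapped between groups. Over all genes 9.36% had every tail array below every brachial array, as Cntfr did, and the share for the direction of Il6st was not counted. Lifr, the receptor subunit for leukemia inhibitory factor and named after its value was seen, had overlapping groups and a log2 fold change of -0.63 (adjusted p = 0.535). With tail replicate 3 left out, the adjusted test called 1 regulator, Sox8, a relative of Sox9 that was named after its value was seen. Sox8 was at 7.72, 8.15 and 9.49 on the tail arrays, against 9.84, 9.52 and 10.08 on the brachial arrays, and without that array it fell by 1.88 (adjusted p = 0.0273).

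**Figure D4:**
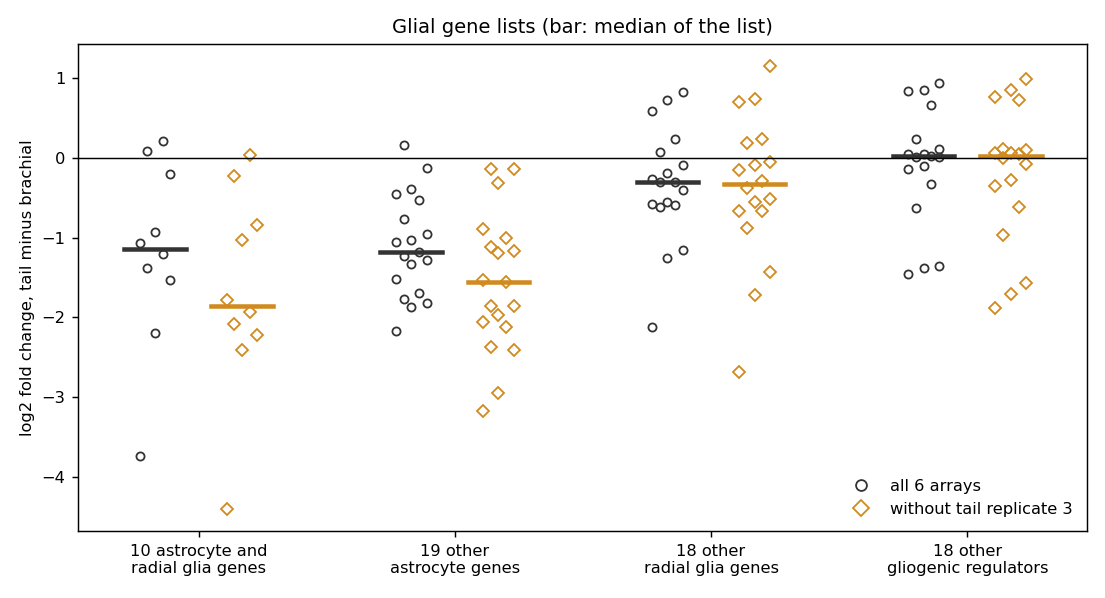
Log2 fold change, tail minus brachial (y axis), of each gene in 4 lists (x axis), with all 6 arrays (circles) and without tail replicate 3 (diamonds). Each bar is the median of its list, -1.14 and -1.86 for the 10 genes, -1.17 and -1.56 for the other astrocyte genes, -0.30 and -0.33 for the other radial glia genes and 0.02 and 0.03 for the gliogenic regulators.

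Relatives of the 10 genes were read by family, with 6.39% of all genes lower and 5.43% higher at an unadjusted p under 0.05. Counts of 0 or 1 in lists this small give no direction for a family. Among 5 other members of the glutamate transporter family 0 were lower and 1 was higher at an unadjusted p under 0.05, the neutral amino acid transporter gene Slc1a5 (log2 fold change 1.62, adjusted p = 0.395 from limma). Among 6 aldehyde dehydrogenase 1 relatives of Aldh1l1, 1 was lower and 1 higher. The higher gene was Aldh1a3, which makes retinoic acid, at 8.05, 7.86 and 7.05 on the tail arrays, against 6.81, 5.41 and 4.797 on the brachial arrays (log2 fold change 1.98, adjusted p = 0.271). Of 10 other aquaporin genes 0 were lower and 1 was higher, Aqp1, at 8.94, 7.29 and 5.74 on the tail arrays, against 5.62, 5.40 and 5.55 on the brachial arrays (adjusted p = 0.402).

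Of 12 other connexin genes 2 were lower and 0 higher at an unadjusted p under 0.05, against 6.39% and 5.43% of all genes. Gjc3, a connexin gene of myelinating glia in the mouse, was at 4.88, 5.70 and 4.52 on the tail arrays, against 6.17, 7.22 and 8.29 on the brachial arrays (log2 fold change -2.19, adjusted p = 0.253 from limma). Of 15 genes in the S100 list 1 was lower and 3 were higher, of which S100pbp encodes an S100-binding protein and not a family member. Among the 3 was S100a6, at 9.46, 8.66 and 7.24 on the tail arrays, against 7.05, 6.81 and 4.67 on the brachial arrays (log2 fold change 2.27, adjusted p = 0.344).

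Of 6 other fatty acid-binding protein genes 1 was lower at an unadjusted p under 0.05, against 6.39% of all genes. It was Fabp5, which like Fabp7 is made by neural progenitors (log2 fold change -1.20, adjusted p = 0.393 from limma). Of 4 other FGF receptor genes 1 was higher, against 5.43% of all genes. This was Fgfr1, at 9.06, 8.93 and 8.87 on the tail arrays, against 8.61, 8.64 and 8.08 on the brachial arrays (log2 fold change 0.51, adjusted p = 0.360). Of 11 intermediate filament genes 0 were lower and 1 was higher, the nuclear lamin gene Lmna (log2 fold change 0.89, adjusted p = 0.334). In these families 0 genes passed the adjusted test with all arrays. The test without tail replicate 3 called 1, the peripherin gene Prph of peripheral neurons, which was named after its value was seen and rose by 3.86 (adjusted p = 0.00832).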

How the data were processed

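RNA of 3 tail and 3 brachial NPC samples was measured on 1 array each. The authors deposited 1 log2 value per transcript cluster and array, made with RMA in Affymetrix Expression Console (versions not given in the sources used here). RMA removes background and equalizes the distributions of the arrays, so a change in total RNA cannot be read. The methods name a human array, whereas samples and probe annotation are from mouse. The medians of the 41345 clusters were 4.82 to 4.91 per array, and 0 columns of other samples were present. Scanner files were not used.

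Genes came from the 23521 clusters with exactly 1 symbol, at the cluster with the highest mean where there were several. They were fitted in R 4.3.3 with limma 3.58.1 (lmFit, eBayes), tail minus brachial, and adjusted by Benjamini-Hochberg over 22180 genes. The step was tested on simulated data. An exact permutation test of 3 against 3 arrays cannot go below 0.10 and is not reported. The number of arrays limits the precision.

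The 10 genes and all lists were chosen with earlier results of these data known. The text names the 10 genes, a few fixed glial genes and genes picked from each list by rule. The rule took the called genes of a list or else the 2 with the smallest p. Not all of the genes so picked are named. Alternatives were the replicate block, other eBayes settings, array weights, leaving out dim clusters, cluster means, all clusters as tested set, quantile normalization again, housekeeping centring, linear means and each array left out. Promoters are from RefSeq, searched with Python 3.11.15.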

Additional observations from a re-analysis of the deposited data

How the results depend on the processing

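With all arrays 14 genes were called higher and 9 lower in tail NPCs over all genes. Each count was 5 and 1 with all transcript clusters tested, and 19 were lower with array weights. Leaving out 1 array gave 0 to 138 higher and 0 to 128 lower, the highest being 138 and 128 without tail replicate 3. Leaving out brachial replicate 1 gave 74 higher and 31 lower, brachial replicate 2 gave 2 and 1, brachial replicate 3 gave 0 and 2, and tail replicate 1 or 2 gave 0 and 0. Without brachial replicate 2 and tail replicate 3, chosen after the data were seen, 59 were higher and 85 lower. Labels do not tell if the replicate numbers pair the samples, and the main fit took them as unpaired. Deviations from the group mean correlated by 0.24, -0.12 and 0.21 for same-numbered arrays, and by -0.33 to 0.15 for other tail and brachial arrays. With the replicate block 123 genes were higher and 71 lower, 0 of the 10 glial genes among them.

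Of the 10 glial genes 0 were called with all arrays, and 0 to 2 lower with 1 array left out, the 2 without tail replicate 3. It was also 2 without brachial replicate 2 and tail replicate 3, Aldh1l1 (adjusted p = 0.0371) and Aqp4. Their median of -1.14 ran from -1.86 without tail replicate 3 to -0.65 without brachial replicate 2, and was -0.66 without tail replicate 1. The number with a log2 fold change of -1 or lower was 3 without tail replicate 1, against 1.27% of all genes. The number below all brachial arrays was 5 without tail replicate 2 or brachial replicate 1, against 13.3% and 19.8% of all genes. The number lower at an unadjusted p under 0.05 was 2 without brachial replicate 2 or 3, against 4.74% and 3.61% of all genes. Gfap had 0.21 with all arrays and -0.023 with linear means, and -0.84 (without tail replicate 3) to 1.41 (without brachial replicate 2) with 1 array left out, also being below 0 without brachial replicate 1 (-0.07) or 3 (-0.71). Gja1 had 0.086 with all arrays, -3.65e-04 with housekeeping centring and -0.022 with linear means, and -0.22 (without brachial replicate 1) to 0.47 (without brachial replicate 2) with 1 array left out. Of the results of single glial genes under 16 alternatives 149 kept direction and call, 4 gained a call and 7 changed direction, and the cause was not tested.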

Other observations

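Lists of other cells that neural tube cultures can hold were also read from the same fit. Of 10 oligodendrocyte lineage genes 2 were lower in tail NPCs at an unadjusted p under 0.05, against 6.39% of all genes. Of these genes 0 passed limma's adjusted test, and their median log2 fold change was -0.71. Nkx2-2, a ventral progenitor factor that oligodendrocyte precursors also make, was at 6.05, 5.36 and 7.15 on the tail arrays, against 6.87, 7.53 and 7.93 on the brachial arrays (log2 fold change -1.26, adjusted p = 0.382). Of 8 young neuron genes 3 were lower at an unadjusted p under 0.05, against 6.39% of all genes, with a median of -0.36. Elavl3, an RNA-binding protein gene of young neurons, was at 5.48, 6.35 and 6.46 on the tail arrays, against 7.33, 7.82 and 7.43 on the brachial arrays, without overlap (log2 fold change -1.43, adjusted p = 0.185).

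Endothelial, ependymal, and neural crest and Schwann cell lists had medians of 0.06, 0.09 and 0.05. Of 6 genes in each list 2, 1 and 2 had lower means in tail NPCs, against 55.2% of all genes. At an unadjusted p under 0.05, 1, 1 and 0 were higher, against 5.43% of all genes, and 0 were lower, against 6.39%. Rfx2 of the ependymal list had a log2 fold change of 0.80 (adjusted p = 0.215 from limma). Ngfr of the neural crest and Schwann cell list had 1.96 (adjusted p = 0.447), and its groups overlapped. Kdr, a VEGF receptor gene of endothelium and early mesoderm, was at 9.81, 8.65 and 5.63 on the tail arrays, against 5.26, 5.44 and 5.09 on the brachial arrays. Its log2 fold change was 2.76 with all arrays (adjusted p = 0.355 from limma), and without tail replicate 3 it rose by 3.96 (adjusted p = 0.0139). The other endothelial marker named by rule, Cldn5, stayed at 4.53 to 4.66 on the tail arrays, against 4.33 to 4.64 on the brachial arrays. Of 12 housekeeping genes 0 had an unadjusted p under 0.05 with all arrays, and their median was 0.05.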
